A study of Labeotropheus fuelleborni and Maylandia zebra with 12 samples.

Results

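The genes of the early secretory pathway and its vesicle coats were followed in replacement teeth and taste bud epithelium of 2 Lake Malawi cichlids. Members were selected by a rule on gene names: SRP subunits (srp), the Sec61 translocon and TRAP complex (sec61, sec62, sec63, ssr), signal peptidase (sec11, spcs), protein disulfide isomerases (pdia), COPII coat genes (sec13, sec16, sec23, sec24, sec31), the SNARE genes sec22, COPI coat genes (cop), ARF GTPase activators (arfgap), p24 cargo receptors (tmed), KDEL receptors (kdelr), TRAPP tethers (trappc) and golgins (golga). Of 26490 features in the table, 70 matched. Of these, 58 had 15 or more counts over all libraries and are described, 11 had fewer and tmed6 had none. The rule uses symbols, so copies that carry only a locus number are not among the members.

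The groups were Labeotropheus fuelleborni replacement tooth, L. fuelleborni taste bud, Maylandia zebra (also called Metriaclima zebra) replacement tooth and M. zebra taste bud, with 3 libraries each. The labels give no treatment, age or strain. Teeth lay within the bone and were taken from opened crypts of the jaw, while taste bud samples were a strip of lip-side epithelium from the lower jaw, so both hold mixtures of cells. The labels do not say whether libraries came from separate animals, so a p-value here covers only the spread among libraries, which may be technical.

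Proteins bound for secretion are recognised on the ribosome by the signal recognition particle (SRP) and threaded into the endoplasmic reticulum (ER) through the Sec61 channel, where signal peptidase removes the leader and disulfide isomerases help them fold. COPII vesicles carry them to the Golgi, and COPI vesicles bring escaped ER proteins and cargo receptors back. TRAPP complexes and golgins capture vesicles at the Golgi. Odontoblasts and bone-forming cells secrete large amounts of collagen, and mutations of SEC23A and SEC24D in humans and of sec23a and sec24d in zebrafish disturb skeletal development. Keratinocytes keep most of their keratin and envelope proteins inside the cell.

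Depth limited what could be seen. Totals ranged from 111626 to 300663 counts in tooth libraries and from 72226 to 248332 in taste bud libraries, and 1 count was worth 3.02 to 14.4 CPM (counts scaled to library size). The 71 ribosomal protein genes held 1.88% to 6.5% of tooth counts and 1.41% to 6.54% of taste bud counts. They were highest in L. fuelleborni tooth replicate 4 and L. fuelleborni taste bud replicates 1 and 2. The feature LOC105941146 took 11.9% to 26.5% of taste bud counts, which lowers every other share there. Of 11 mineral matrix genes of the tooth, 11 were higher there than in taste bud, with summed levels of 8431 to 42420 CPM in tooth and 142 to 1426 CPM in taste bud. Of 9 oral keratinocyte genes, 8 were lower in tooth, with summed levels of 296 to 643 CPM in tooth and 939 to 4560 CPM in taste bud. Of 4 taste receptor cell genes with 15 or more counts, trpm5 and ddc were lower in tooth and itpr3 was higher. The fourth, plcb2, was not tested, with 32 counts in tooth and 2 in taste bud. The summed level of that list was 604 to 901 CPM in tooth and 1000 to 3728 CPM in taste bud, of which trpm5 held most, and calhm3 and pkd2l1 had no count in any library. Of the mucous cell list, whose cells are secretory, only 2 genes were in the table. They had 2 counts in tooth, against 0 in taste bud, and spdef had none in any library. This list therefore could not show whether such cells were present. Summed immune cell genes were at 111 to 779 CPM in tooth and 69.9 to 826 CPM in taste bud. Of these cd74 did not pass, and the untested spi1, csf1r and lcp1 had 20, 23 and 51 counts in tooth and 0, 2 and 12 in taste bud. Of 2 skeletal muscle genes tested, actn3 was lower in tooth and ryr3 did not pass. The untested muscle gene mylpf went the other way from actn3, with 19 counts in tooth and 4 in taste bud. The erythrocyte gene slc4a1 was counted 21 times in tooth and 14 times in taste bud. In bulk tissue, fewer cells of a type and less RNA per cell cannot be told apart, and the part of cell mixture in the results below was not tested. The library kit marks strand but the sources used here do not give the strand setting used for counting, so a count cannot be assigned with certainty to a gene rather than to one on the opposite strand.

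The 58 genes held 0.782%, 0.782% and 0.701% of all counts in the L. fuelleborni tooth libraries, numbered 0, 3 and 4, against 0.343%, 0.462% and 0.385% in those from taste bud, numbered 1, 2 and 4. In M. zebra, tooth libraries, numbered 0, 1 and 3, held 0.829%, 0.804% and 0.859%, against 0.546%, 0.441% and 0.392% in those from taste bud, numbered 1, 2 and 3. The tooth libraries all lay above the taste bud libraries in both species. The means were 0.755% ± 0.0466 in L. fuelleborni tooth and 0.397% ± 0.0604 in taste bud of L. fuelleborni, and 0.831% ± 0.0280 in M. zebra tooth and 0.460% ± 0.0783 in M. zebra taste bud (SD, n = 3 each). Over both species the share was 0.793% ± 0.0537 in tooth, against 0.428% ± 0.0715 in taste bud (SD, n = 6 each), a ratio of 1.85. With LOC105941146 left out of the totals the ratio was 1.48. On library sizes scaled by the trimmed mean of M-values (TMM) it was 1.47. A summed share over chosen genes was given no test.

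Most of that sum came from few genes. The COPII-binding phospholipase-like gene sec23ip had 3760 counts, which was 31.1% of the 12093 counts of the 58 genes, and the TRAPP subunit gene trappc1 had 3269, or 27.0%. With sec61g (514 counts) and trappc12 (376 counts) they made up 65.5%. These 4 held 0.505% ± 0.0950 of counts in tooth, against 0.336% ± 0.0861 in taste bud, giving a ratio of 1.50, or 1.19 on TMM library sizes. The other 54 genes held 0.288% ± 0.0623 in tooth, against 0.0922% ± 0.0328 in taste bud, giving a ratio of 3.13, or 2.47 on TMM library sizes. The limit on strand applies to these 4 genes as well, and its part in their counts was not tested. The 2 sets were separated after their counts were seen, so the contrast between them is a description.

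**Figure D1:**
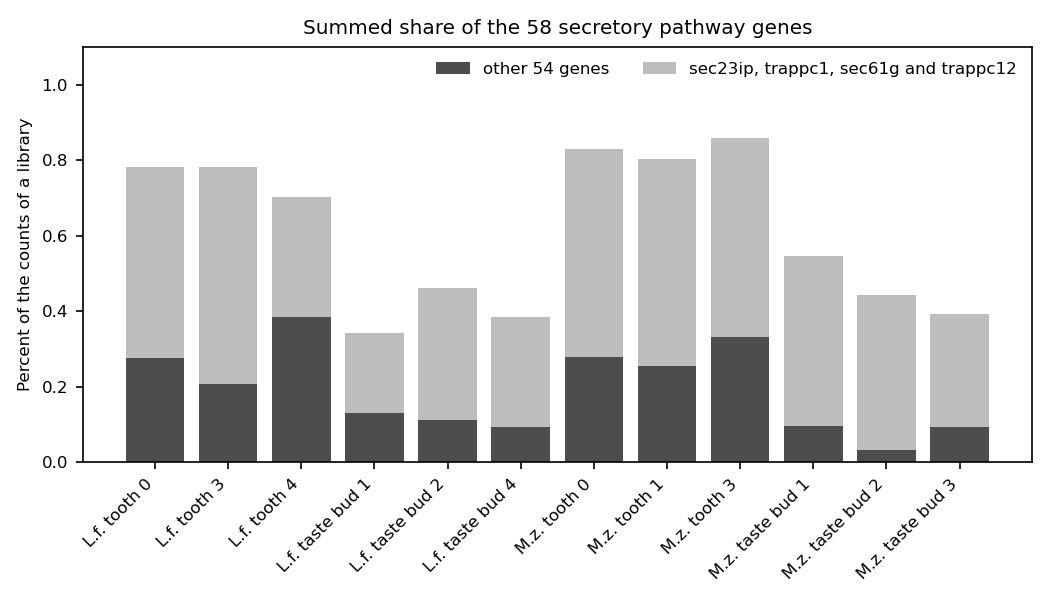
Stacked bars give the share of each library's counts held by the 58 genes, with the 4 genes of most counts in light grey and the other 54 in dark grey. The 54 genes held 0.207% to 0.385% in the 6 tooth libraries, against 0.0326% to 0.130% in the 6 taste bud libraries.

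L. fuelleborni tooth replicate 4 stood apart within its group. The 54 genes held 0.385% of its counts, against 0.276% and 0.207% in replicates 0 and 3, while the 4 genes of most counts held 0.317%, against 0.506% and 0.576%. It was also the deepest library and had the highest ribosomal protein share of the tooth libraries, at 6.5% against 2.45% and 2.49% in replicates 0 and 3. Without it, the mean share of the 58 genes in tooth was 0.811%.

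Relative to TMM library sizes, 47 of the 58 genes (81.0%) had more counts in tooth and 11 had fewer, with a median log2 ratio of 0.92. Among all 10760 features with 15 or more counts, 65.0% had more in tooth, with a median of 0.59. These ratios pool the species, whose TMM library sizes were unequal in taste bud, at 525789 in L. fuelleborni and 248588 in M. zebra. A species difference can therefore enter them. Within species, 77.6% of the 58 genes had more in tooth in L. fuelleborni and 84.5% in M. zebra, against 63.6% and 65.9% of all features. All 6 tooth libraries lay above all 6 taste bud libraries for 7 of the 58 genes: srp14, ssr2, pdia4, pdia6, spcs1, sec23a and sec24d. Such a separation held for 10.8% of the 10760 features. The p24 gene tmed1 alone lay in the other direction, which 3.49% of features did. Both counts therefore lay near the share of all features. For spcs1 the closest tooth and taste bud libraries each held 1 count, and for sec24d each held 2. Those libraries were apart only through library size.

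**Figure D2:**
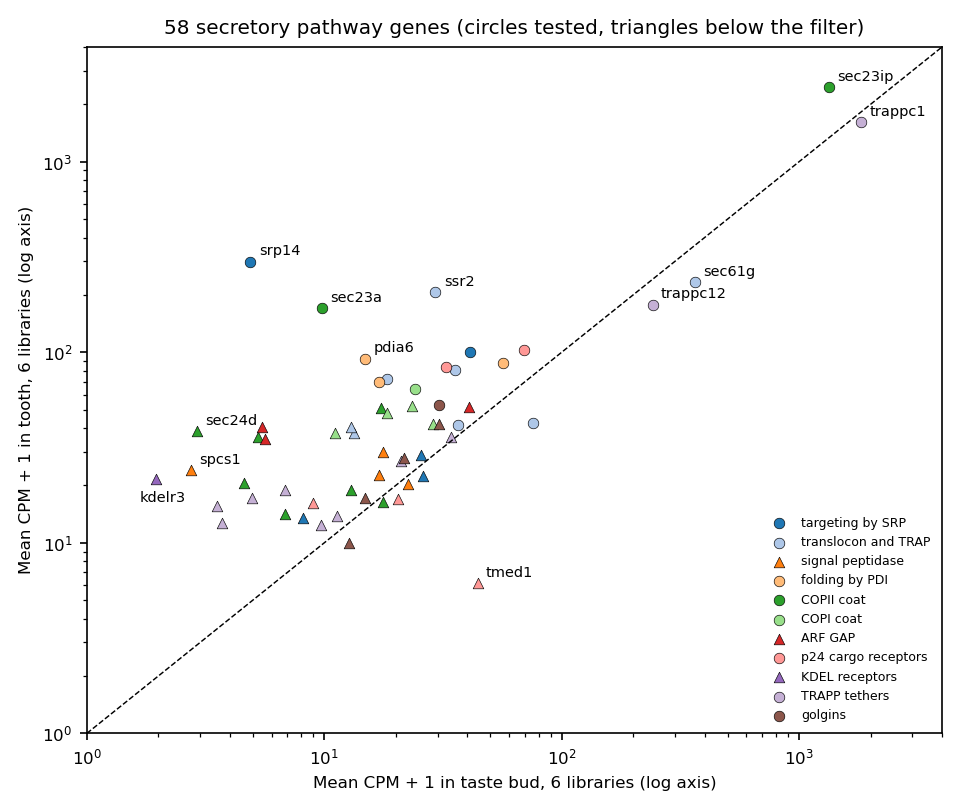
Each of the 58 genes is placed by its mean CPM plus 1 in taste bud (x axis) and in tooth (y axis), both on log axes, with the dashed line at equality. Genes such as srp14, sec23a and sec24d lie above the line, sec63, sec61g, trappc1 and trappc12 lie just under it, and tmed1 lies furthest below.

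To see which steps of the pathway differed between tooth and taste bud, counts were tested with edgeR over both species. Only 19 of the 58 genes had enough counts to be tested. A gene can reach that filter through the tissue in which it is high, so the 19 do not speak for the 58. Of the 19, 11 were higher in tooth: srp14 and srp54, the translocon genes sec62, ssr2 and ssr4, the isomerases pdia4 and pdia6, the COPII genes sec23a and sec23ip, copa and tmed2. None was lower in tooth, also at an unadjusted p below 0.05 in edgeR and at an adjusted p below 0.05 in DESeq2 and limma. Of all 2962 genes tested, 32.6% were higher in tooth and 20.2% were lower. The median log2 fold change (log2FC, tooth over taste bud) of the 19 was 1.31, and that of all tested genes was 0.21. The 8 genes that did not pass were sec61g, sec63, ssr1, pdia3, tmed10, trappc1, trappc12 and golga4.

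**Figure D3:**
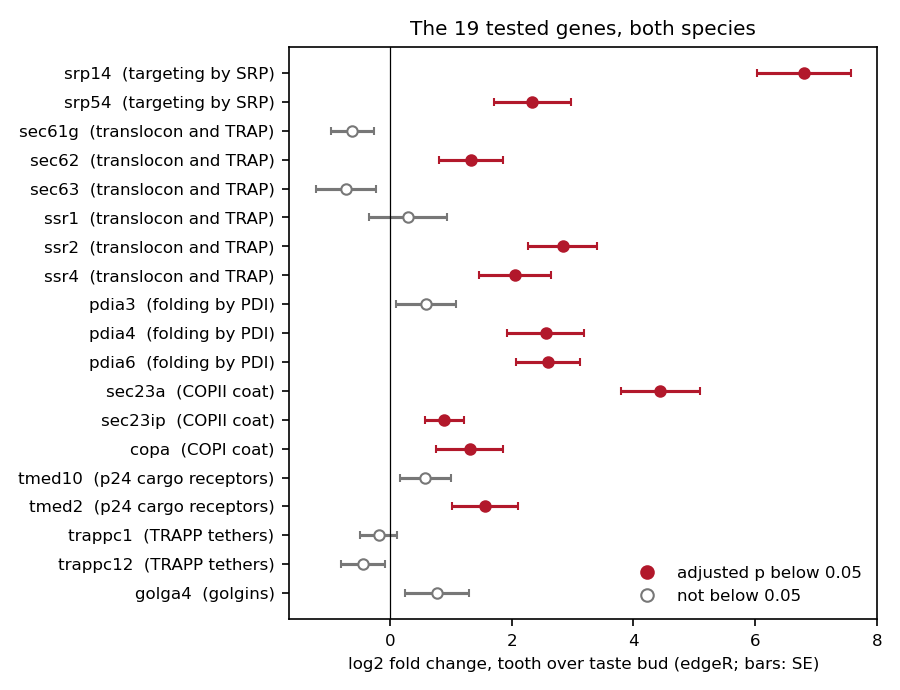
Points are edgeR log2 fold changes of tooth over taste bud for the 19 tested genes, ordered by their step in the pathway, with bars of 1 SE. Filled red points passed an adjusted p of 0.05. They run from 0.89 for sec23ip to 6.81 for srp14, and the 8 open points run from -0.72 for sec63 to 0.77 for golga4.

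The SRP subunit gene srp14, whose protein sits at the end of the particle that slows translation, differed most. It had 689.8, 358 and 115 CPM in L. fuelleborni tooth and 11.4, 4.73 and 7.18 CPM in L. fuelleborni taste bud. In M. zebra it had 257, 121 and 246 CPM in tooth and no count in any of the 3 taste bud libraries. No tooth library came near a taste bud library, although the tooth libraries themselves ranged over a wide span, with L. fuelleborni replicate 4 the lowest. Summed over libraries there were 298 counts in tooth, against 4 in taste bud, 47.8-fold higher in tooth (log2FC 6.81, SE 0.77, adjusted p = 7.36e-08). In M. zebra alone it was at least 17.0-fold higher in tooth, taking 3 counts over the taste bud libraries as the floor.

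The GTPase subunit gene srp54, whose protein binds the signal sequence, passed in M. zebra and not in L. fuelleborni. L. fuelleborni tooth had 32.8, 35.8 and 124 CPM and L. fuelleborni taste bud had 97.1, 70.9 and 57.5 CPM, so that the groups overlapped, with replicate 4 the highest tooth library. M. zebra tooth had 105, 116 and 185 CPM and M. zebra taste bud had 14.0, 0 and 0 CPM, the taste bud group having a single count. The tissue log2FC was -0.13 (SE 0.63) in L. fuelleborni and 4.82 (SE 1.03) in M. zebra. The difference between them was -4.95 (SE 1.25) with an unadjusted edgeR p of 5.18e-04 and an adjusted p = 0.189, so it did not pass over all genes. Without M. zebra taste bud 1, which held that count, the M. zebra value was 7.57 and the difference -7.70 (SE 1.87, adjusted p = 0.257). Over both species the gene was higher in tooth (log2FC 2.34, SE 0.63, adjusted p = 0.00262), and without M. zebra taste bud replicate 1 the log2FC was 3.72.

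The other SRP subunits were below the filter. The counts were 34 in tooth, against 23 in taste bud for srp19, a ratio of 0.948 relative to TMM library sizes. For srp72 they were 33 in tooth and 20 in taste bud (ratio 1.06), and for srp68 13 in tooth and 7 in taste bud (ratio 1.19). Each of these directions turned when 1 library was left out: the ratio was 0.530 for srp72 without L. fuelleborni tooth replicate 4, which held 21 of its tooth counts, 1.41 for srp19 without taste bud 1 of that species and 0.933 for srp68 without its tooth 3. The gene srp9, with fewer than 15 counts in all, had 2 in tooth and 5 in taste bud. With it, the 5 SRP genes without srp14 summed to 164 ± 61.2 CPM in tooth and 102 ± 71.2 CPM in taste bud (SD, n = 6 each).

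At the translocon, 3 of 6 tested genes were higher in tooth and none was lower, against 32.6% and 20.2% of all genes tested. The gene ssr2 encodes the beta subunit of TRAP, a complex that assists the Sec61 channel with many secreted proteins. It had 229.9, 85.8 and 211 CPM in L. fuelleborni tooth and 11.4, 47.3 and 0 CPM in L. fuelleborni taste bud. In M. zebra it had 216, 162 and 334 CPM in tooth and 83.9, 0 and 27.8 CPM in taste bud. The lowest tooth library, L. fuelleborni replicate 3, still lay above the highest taste bud library, M. zebra replicate 1, by a small margin. The counts were 258 in tooth, against 21 in taste bud, 7.88-fold higher in tooth (log2FC 2.84, SE 0.57, adjusted p = 1.35e-04).

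The delta subunit gene ssr4 was 4.01-fold higher in tooth (log2FC 2.06, SE 0.59, adjusted p = 0.00453). Its lowest, median and highest levels were 21.5, 64.8 and 145 CPM in tooth and 7.18, 14.2 and 42.5 CPM in taste bud, and the tissues overlapped where L. fuelleborni tooth replicate 3 was low. The gamma subunit gene ssr3, below the filter, had 50 tooth counts and 12 taste bud counts, a ratio of 2.67, or 6.21 without L. fuelleborni taste bud 1. The alpha subunit gene ssr1 did not pass, at 40.4 ± 28.5 CPM in tooth and 35.6 ± 30.6 CPM in taste bud (SD, n = 6 each, log2FC 0.30, SE 0.64, adjusted p = 0.727).

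The Sec61 gamma subunit gene sec61g had 232 ± 67.3 CPM in tooth and 363 ± 144 CPM in taste bud (SD, n = 6 each), and did not pass (log2FC -0.62, SE 0.35, adjusted p = 0.143). In M. zebra its tooth libraries, at 239, 288 and 171 CPM, all lay below the taste bud libraries at 419.5, 592 and 324 CPM, while in L. fuelleborni the tissues overlapped. The beta subunit gene sec61b, below the filter, had 53 counts in tooth, against 12 in taste bud, giving a ratio of 2.83. L. fuelleborni tooth replicate 4 held 31 of those tooth counts, and without it the ratio was 1.62. The difference between the subunits of this channel was not tested.

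The Sec62 and Sec63 proteins work beside the channel on proteins that enter after translation. The gene sec62 was 2.11-fold higher in tooth, with 48.4, 77.5 and 118 CPM as its lowest, median and highest tooth level and 0, 32.8 and 79.0 CPM in taste bud (log2FC 1.34, SE 0.53, adjusted p = 0.0343). That call ended in 7 of 12 fits that left out a library, L. fuelleborni tooth 4 and taste bud 1 and 2 and M. zebra tooth 0 and 1 and taste bud 1 and 2 (adjusted p 0.0595 to 0.0895). Without M. zebra taste bud replicate 3 its log2FC was 2.01. The gene sec63 did not pass (log2FC -0.72, SE 0.49, adjusted p = 0.226), with 14.3, 35.8 and 87.5 CPM in tooth and 42.0, 74.5 and 116 CPM in taste bud. Its highest tooth level was in L. fuelleborni replicate 4, and without that library sec63 was lower in tooth (log2FC -1.46, SE 0.50, adjusted p = 0.018).

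Signal peptidase had 4 genes with 15 or more counts, all below the filter. The small subunit gene spcs1 had 1, 3 and 11 counts in L. fuelleborni tooth and 1, 1 and 0 in taste bud of L. fuelleborni, and 6, 4 and 5 in M. zebra tooth and none in M. zebra taste bud. Every tooth library lay above every taste bud library in CPM, and the ratio was 9.62 (2.44 to 83.1), with the 95% counting interval in parentheses, or 14.9 (2.48 to 608) without L. fuelleborni taste bud 1. The catalytic subunit gene sec11a had 37 tooth counts and 14 taste bud counts, a ratio of 1.70. For the structural subunit genes spcs2 and spcs3 the ratios were 1.24 and 0.998. That of spcs2 was 0.939 without L. fuelleborni tooth 4 and 3.08 without taste bud 1 of that species, and that of spcs3 lay on either side of 1 depending on the library left out.

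Of the protein disulfide isomerases, which form and rearrange disulfide bonds in the ER, 2 of 3 tested were higher in tooth. Of all genes tested, 32.6% were. The gene pdia6 had 115, 78.7 and 75.4 CPM in L. fuelleborni tooth and 5.71, 23.6 and 7.18 CPM in L. fuelleborni taste bud. In M. zebra it had 128, 55.7 and 96.7 CPM in tooth and 14.0, 14.4 and 18.5 CPM in taste bud. It was 6.18-fold higher in tooth (log2FC 2.60, SE 0.53, adjusted p = 1.58e-04), with tissues that did not overlap in either species.

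The gene pdia4 had 49.3, 64.4 and 129.8 CPM in L. fuelleborni tooth and 22.9, 28.4 and 35.9 CPM in L. fuelleborni taste bud. M. zebra tooth had 64.2, 65.0 and 39.6 CPM and M. zebra taste bud had 0, 0 and 9.27 CPM. All tooth libraries lay above all taste bud libraries, by 3.69-fold over summed counts (log2FC 2.56, SE 0.63, adjusted p = 0.00118), and without M. zebra taste bud replicate 3, which held the single count of its group, the log2FC was 3.90. The isomerase of glycoproteins, pdia3, overlapped between tissues and did not pass, with 87.3 ± 57.5 CPM in tooth and 55.7 ± 32.0 CPM in taste bud (SD, n = 6 each, log2FC 0.60, SE 0.49, adjusted p = 0.315). Its highest library was L. fuelleborni tooth replicate 4, at 196 CPM. The fourth gene, pdia5, had 7 counts in all.

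The COPII coat shapes vesicles that leave the ER. Its inner layer gene sec23a had 73.9, 215 and 175 CPM in L. fuelleborni tooth and 17.1, 0 and 21.5 CPM in L. fuelleborni taste bud. In M. zebra it had 163, 153 and 233 CPM in tooth and 14.0, 0 and 0 CPM in taste bud. The lowest tooth library, L. fuelleborni replicate 0, stood well above every taste bud library. The counts were 211 in tooth, against 7 in taste bud, 19.3-fold higher in tooth (log2FC 4.44, SE 0.65, adjusted p = 2.24e-06).

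The paired cargo-selecting gene sec24d was below the filter but followed the same direction, with 6, 2 and 19 counts in L. fuelleborni tooth and 2, 0 and 0 in L. fuelleborni taste bud. It had 3, 13 and 6 counts in M. zebra tooth and none in M. zebra taste bud, a ratio over both species of 15.7 (4.12 to 133). Its only taste bud counts were in L. fuelleborni taste bud 1, without which the ratio was at least 8.11. The sister genes sec24a and sec24c gave ratios of 1.22 and 1.13, from 21 and 23 tooth counts and 11 and 13 taste bud counts. They were 2.08 for sec24a without L. fuelleborni taste bud 1 and 0.816 for sec24c without its tooth 4. Among the outer cage genes, sec31a had 53 tooth counts and 4 taste bud counts, a ratio of 8.50. L. fuelleborni tooth replicate 4 held 30 of those tooth counts, and the ratio was 5.08 without it and 13.2 (3.47 to 112) without taste bud 1 of the species. For sec13 there were 69 tooth counts and 13 taste bud counts, a ratio of 3.40 (8.56 without L. fuelleborni taste bud 1), and for sec31b 17 tooth counts and 5 taste bud counts, a ratio of 2.18. The exit-site scaffold gene sec16a had 28 tooth counts and 3 taste bud counts, a ratio of 5.99 (1.85 to 30.8). L. fuelleborni tooth replicate 4 held 18 of its 28 tooth counts, and without it the ratio was 2.95 (0.759 to 16.7). Without L. fuelleborni taste bud 4, which held all its taste bud counts, the ratio was at least 4.91.

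The gene sec23ip, whose product binds the Sec23 and Sec24 complex at exit sites, passed in tooth against taste bud. It had 2480.0, 3054 and 1521 CPM in L. fuelleborni tooth and 880.1, 1205 and 1437 CPM in L. fuelleborni taste bud. M. zebra tooth had 2795, 2455 and 2457 CPM and M. zebra taste bud had 1412, 2124 and 955 CPM. Tooth lay above taste bud within each species, though the tissues overlapped across species (L. fuelleborni tooth replicate 4 against M. zebra taste bud replicate 2), and the gene was 1.87-fold higher in tooth (log2FC 0.89, SE 0.32, adjusted p = 0.0209). The call ended in fits lacking tooth 3 or taste bud 1 of L. fuelleborni or taste bud 3 of M. zebra (adjusted p 0.0518 to 0.0672). The remaining 9 COPII genes, 8 of them with 15 or more counts, summed to 363 ± 106 CPM in tooth and 69.4 ± 50.6 CPM in taste bud (SD, n = 6 each). Of that sum sec23a alone held 169 ± 55.7 CPM in tooth and 8.78 ± 9.91 CPM in taste bud. With sec23ip, which was set apart after its counts were seen, the 10 genes summed to 2824 ± 442 CPM in tooth and 1405 ± 415 CPM in taste bud.

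The COPI coat returns proteins from the Golgi to the ER. Its alpha subunit gene copa had 21.5, 44.8 and 129.8 CPM as the lowest, median and highest tooth level and 14.0, 22.2 and 37.8 CPM in taste bud, with overlap in L. fuelleborni. It was 2.69-fold higher in tooth (log2FC 1.31, SE 0.55, adjusted p = 0.0462), the weakest of the 11 calls. That call ended in 10 of 12 fits that left out a library, and held only in the fits lacking tooth 3 or taste bud 2 of L. fuelleborni (adjusted p 0.0505 to 0.131 where it ended). In limma voom it ended both with the replicate block (adjusted p = 0.0642) and without the block (adjusted p = 0.0781). In edgeR it also ended with no filter (adjusted p = 0.11). So it did without the 3 libraries richest in ribosomal protein counts (adjusted p = 0.163). The other COPI genes were below the filter. Their counts in tooth and taste bud were 55 and 11 for copb1, 55 and 25 for cope, 59 and 16 for copg2 and 64 and 17 for copz1. The ratios were 3.21, 1.41, 2.37 and 2.41 in the same order, all above 1. L. fuelleborni tooth replicate 4 held 29 of the 55 copb1 counts in tooth, and the copb1 ratio was 2.09 without it and 5.13 without taste bud 2 of the species.

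The ARF GTPase activators, which trigger release of the COPI coat, were also too low to be tested. The gene arfgap1 had 5, 1 and 18 counts in L. fuelleborni tooth and 1, 1 and 1 in taste bud of L. fuelleborni, and 6, 8 and 14 in M. zebra tooth and 0, 0 and 1 in M. zebra taste bud. Its ratio was 8.34. The gene arfgap3 had 44 counts in tooth, against 4 in taste bud, giving a ratio of 7.06, or 10.9 (2.85 to 93.0) without L. fuelleborni taste bud 1, and arfgap2 had 62 tooth counts and 30 taste bud counts, a ratio of 1.33. The differences between these 3 genes were not tested.

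The p24 proteins (tmed genes) sort cargo between ER and Golgi. The gene tmed2 had 90.3, 28.6 and 157 CPM in L. fuelleborni tooth and 57.1, 47.3 and 43.1 CPM in taste bud of L. fuelleborni, and 52.5, 83.5 and 83.5 CPM in M. zebra tooth and 14.0, 0 and 27.8 CPM in M. zebra taste bud. The tissues were apart in M. zebra and overlapped in L. fuelleborni, where tooth replicate 3 was low. Over both species it was 2.42-fold higher in tooth (log2FC 1.57, SE 0.54, adjusted p = 0.0157), and without L. fuelleborni tooth replicate 4 it missed the threshold (adjusted p = 0.0618). Its partner gene tmed10 did not pass, at 102 ± 33.1 CPM in tooth and 68.3 ± 32.2 CPM in taste bud (SD, n = 6 each, log2FC 0.59, SE 0.42, adjusted p = 0.247).

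The gene tmed1 had fewer counts in tooth than in taste bud. It had 0, 2 and 1 counts in L. fuelleborni tooth and 9, 12 and 4 in taste bud of L. fuelleborni, and 0, 2 and 1 in M. zebra tooth and 3, 3 and 4 in M. zebra taste bud. Every tooth library lay below every taste bud library in CPM, with means of 5.17 ± 5.64 CPM in tooth and 43.2 ± 9.99 CPM in taste bud (SD, n = 6 each). The ratio of tooth over taste bud was 0.110, and the gene was below the filter for testing. The ratio was 1.92 for tmed8, or 2.98 (0.870 to 15.8) without L. fuelleborni taste bud 1. For tmed9 it was 0.844, or 0.558 without L. fuelleborni tooth 4 and 1.29 without taste bud 2 of that species.

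The KDEL receptor catches ER residents that reach the Golgi, and kdelr3 was its single gene in the table. It had 5, 2 and 11 counts in L. fuelleborni tooth and 1, 0 and 0 in taste bud of L. fuelleborni, and 3, 1 and 3 in M. zebra tooth and none in M. zebra taste bud. The ratio was 16.04 (2.62 to 658), and without L. fuelleborni taste bud 1, which held the single taste bud count, it was at least 4.14. At this depth a taste bud level below the worth of 1 count per library could not be seen.

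**Figure D4:**
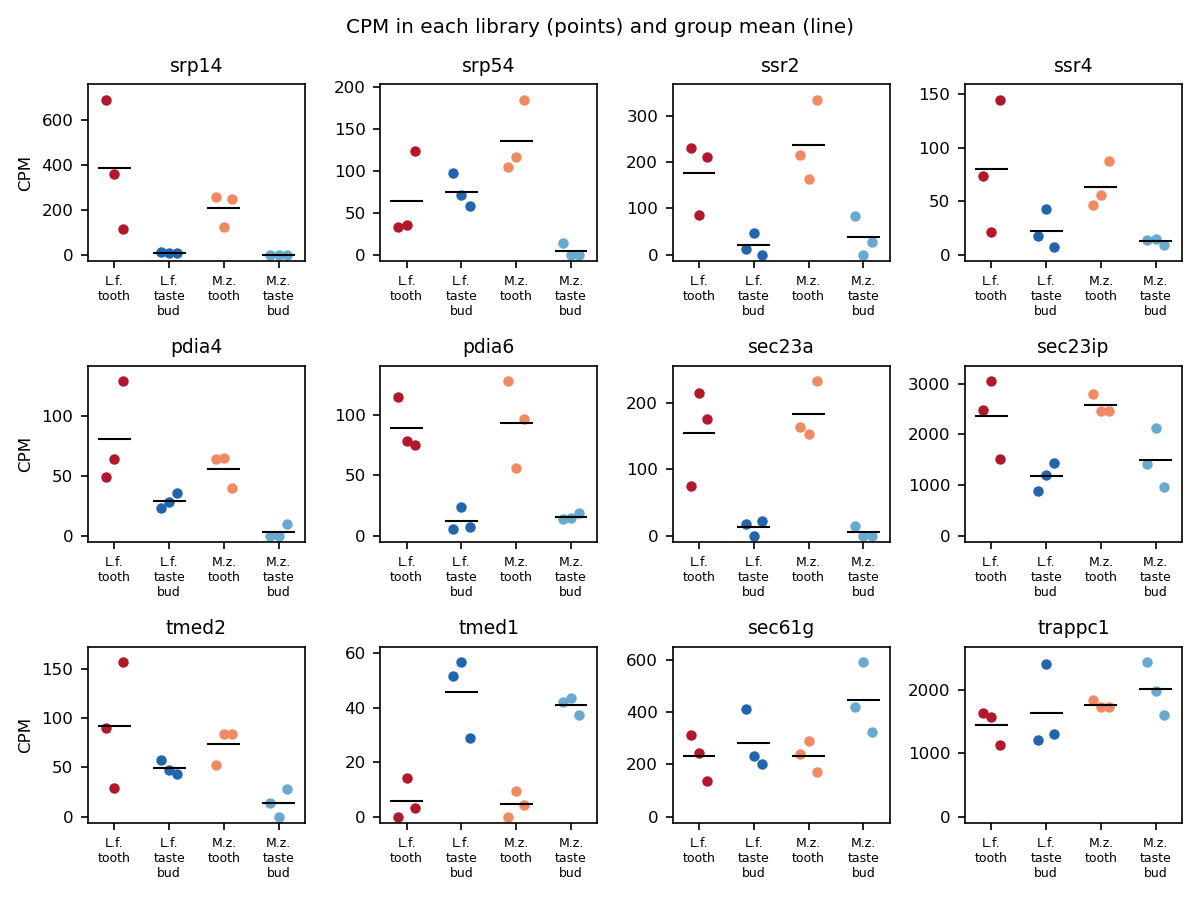
Each panel shows the CPM of 1 gene in every library (points) and the group mean (line), for tooth and taste bud of L. fuelleborni (L.f.) and M. zebra (M.z.). Tooth lies above taste bud without overlap for srp14, ssr2, pdia4, pdia6 and sec23a, below it for tmed1, and overlaps it for sec61g in L. fuelleborni and for trappc1 in both species.

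Of the TRAPP genes, which act in vesicle capture at the Golgi, neither of those tested passed. The core TRAPP subunit gene trappc1 had 1642, 1573 and 1132 CPM in L. fuelleborni tooth and 1212, 2415 and 1300.1 CPM in L. fuelleborni taste bud. M. zebra had 1844, 1726 and 1736 CPM in tooth and 2447, 1994 and 1613 CPM in taste bud. The tissues overlapped in both species, and the difference did not pass (log2FC -0.19, SE 0.31, adjusted p = 0.637). The same held for trappc12, a subunit of TRAPP III, with 177 ± 57.7 CPM in tooth and 241 ± 72.8 CPM in taste bud (SD, n = 6 each, log2FC -0.44, SE 0.36, adjusted p = 0.32). The other 8 TRAPP genes with 15 or more counts were below the filter, with 16 to 36 counts in tooth and 3 to 28 in taste bud. Their ratios ran from 0.825 for trappc4 to 4.28 (1.27 to 22.5) for trappc5. For trappc3 and trappc10 the ratios were 3.85 (1.12 to 20.4) and 3.63 (1.05 to 19.4), for trappc2l and trappc11 3.05 and 2.05, and for trappc6b and trappc8 1.47 and 1.12. Single libraries moved most of them. Without L. fuelleborni taste bud 1 the ratio was 8.94 (1.41 to 372) for trappc3 and 4.72 (1.14 to 41.8) for trappc2l, without taste bud 2 of that species it was 7.92 (1.24 to 331) for trappc10, and without M. zebra taste bud 1 it was 9.31 (1.45 to 391) for trappc11. For trappc5 it was 10.5 (1.68 to 436) without L. fuelleborni taste bud 4 and 2.49 (0.642 to 14.1) without M. zebra tooth 0. For trappc4 it was 1.07 without L. fuelleborni tooth 4, and for trappc8 it was 0.794 without M. zebra tooth 0, 0.982 without L. fuelleborni taste bud 4 and 0.966 without M. zebra taste bud 3.

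Golgins are long coiled proteins that hold vesicles at Golgi membranes. The only tested one, golga4, did not pass, at 51.6 ± 18.6 CPM in tooth and 29.4 ± 16.002 CPM in taste bud (SD, n = 6 each, log2FC 0.77, SE 0.53, adjusted p = 0.226). The ratios of the 4 others were 1.52 for golga2, 1.54 for golga3, 0.916 for golga5 and 0.740 for golga1, the last from 15 counts in tooth, 10 of them in L. fuelleborni replicate 4, and 13 in taste bud, none of them in M. zebra. Without L. fuelleborni tooth replicate 4, which held 35 of the 60 tooth counts of golga3, the ratio was 0.884 for golga3 and 0.340 for golga1, and without taste bud 1 of the species it was 1.86 for golga1. The golga5 ratio lay on either side of 1 depending on the library left out, and it pooled opposite directions. In L. fuelleborni every golga5 tooth level, at 16.4, 0 and 12.1 CPM, lay below taste bud at 28.6, 18.9 and 35.9 CPM. In M. zebra golga5 was at 23.3, 32.5 and 13.2 CPM in tooth and absent from taste bud. With no filter, its log2FC over both species was 1.78 (SE 1.14, edgeR adjusted p = 0.326). Below the filter, its species difference was not tested in the main fit.

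Of the 39 genes below the filter, 27 had a ratio that moved by over 1.5 times or crossed 1 when 1 library was left out. In total 8 were higher in tooth in a fit of all features with no filter, and 1 was lower: spcs1, sec13, sec24d, sec31a, copb1, arfgap1, arfgap3 and kdelr3 were higher, and tmed1 was lower. Among the 7798 features with 15 or more counts below the filter, 18.4% were higher in that fit and 4.3% lower, so the members' shares were close to those of other low features. Its p-values cannot be set beside those above, since more features were tested. Its adjusted p was 2.06e-04 for sec24d, 8.01e-04 for tmed1, 0.00224 for arfgap1, 0.00375 for sec31a, 0.00837 for spcs1, 0.00847 for arfgap3, 0.0159 for kdelr3, 0.0316 for copb1 and 0.0394 for sec13.

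Just above the cutoff of 15 counts lay srp68 and trappc10, with 20 counts each, and just under it lay trappc6a with 13, sec22a with 11 and golga7 with 10. The other genes under it had 3 to 8 counts: srp9, pdia5, sec16b, sec22c, copb2, trappc2, trappc9 and trappc13. The ER to Golgi SNARE genes, sec22a and sec22c, therefore have no described member.

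The tissue difference was then taken within each species. In L. fuelleborni 4 of the 19 tested genes were higher in tooth, srp14, ssr2, pdia6 and sec23a, and none was lower, against 24.6% and 13.9% of all genes tested. With RLE size factors or DESeq2 8 were higher in L. fuelleborni, with ssr4, pdia4, sec23ip and copa added. Those settings also moved the median log2FC of all tested genes toward tooth, from 0.21 to 0.41 over both species. The share of all genes called in L. fuelleborni under them is not given here. Whether the rise in called members was particular to them was not tested. Without L. fuelleborni tooth replicate 4, sec63 was lower in tooth of that species (log2FC -2.35, SE 0.78, adjusted p = 0.022). In M. zebra 8 were higher, the same 4 with srp54, ssr4, pdia4 and tmed2, and none was lower, against 26.9% and 15.7%. With every library kept, none of the 19 genes was lower in tooth in either species at an unadjusted p below 0.05 in edgeR. None was lower at an adjusted p below 0.05 in DESeq2 or limma. In the edgeR fit with no filter, tmed1 was lower in L. fuelleborni tooth (log2FC -3.08, SE 0.97, adjusted p = 0.0218). In that fit sec24d was higher in tooth in L. fuelleborni (adjusted p = 0.0337) and in M. zebra (adjusted p = 0.0223). For sec23a the log2FC was 3.63 (SE 0.78) in L. fuelleborni and 5.25 (SE 1.04) in M. zebra, and for ssr2 it was 3.01 (SE 0.79) in L. fuelleborni and 2.67 (SE 0.82) in M. zebra. The L. fuelleborni call of sec23a ended without the 3 libraries richest in ribosomal protein counts (log2FC 2.70, adjusted p = 0.0681), and its M. zebra value was 7.999 without M. zebra taste bud 1, which held the single taste bud count there. The L. fuelleborni value of ssr2 was 4.66 without taste bud 2 of that species. For pdia4 it was 1.53 (SE 0.67) with an adjusted p = 0.0715 in L. fuelleborni, and 3.595 (SE 1.07) with an adjusted p = 0.00867 in M. zebra, where it was 6.27 without M. zebra taste bud 3. Leaving out 1 library in turn ended the M. zebra call of ssr4 in 8 of 12 fits, of tmed2 in 4, of ssr2 in 2 (M. zebra taste bud 2 or 3, adjusted p 0.0508 to 0.0517) and of pdia6 in 1 (M. zebra tooth 0, adjusted p = 0.0511). Those that ended tmed2 lacked M. zebra tooth 1 or 3 or taste bud 1 or 2 (adjusted p 0.0903 to 0.134), and those that ended ssr4 lacked L. fuelleborni tooth 0 or taste bud 1 or any M. zebra library (adjusted p 0.0513 to 0.147). Without M. zebra taste bud replicate 2, 5 of the 19 genes were called in that species. Over all fits that left out 1 library, 1010 to 1353 of all 2962 genes were called there.

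The species difference in the tissue difference passed for none of the 19 genes, and for 0% of all 2962 genes tested. At an unadjusted p below 0.05, edgeR gave 228 genes, 1 of them a member (srp54), while at an adjusted p below 0.05 DESeq2 and limma called none of the members. A call in one species and not in the other is therefore not shown to differ between them.

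Species were compared within each tissue as L. fuelleborni over M. zebra. In tooth none of the 19 genes passed, none at an unadjusted p below 0.05, and none in DESeq2 or limma, while 1.52% of all genes passed. The log2FC values ran from -0.97 (SE 0.61) for srp54 to 1.13 (SE 0.66) for copa. In taste bud 1 of 19 passed, against 4.29% of all genes, and it was srp54. It had 97.1, 70.9 and 57.5 CPM in taste bud of L. fuelleborni and 14.0, 0 and 0 CPM in M. zebra taste bud, from 40 counts in L. fuelleborni and 1 in M. zebra, with a ratio of 18.9 (3.205 to 765) (log2FC 3.98, SE 1.08, adjusted p = 0.0305). Every L. fuelleborni library lay above every M. zebra library. Removing taste bud 1 or 2 of L. fuelleborni, or taste bud 2 or 3 of M. zebra, ended the call (adjusted p 0.0535 to 0.136). So did removing the 3 libraries richest in ribosomal protein counts, 2 of which are L. fuelleborni taste bud libraries (adjusted p = 0.136). Without M. zebra taste bud replicate 1, the log2FC was 6.73.

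The rest of the pathway was read from lists of genes that work beside the members. In these lists too a gene can reach the filter through the tissue in which it is high. The tested genes of a list therefore do not speak for the whole list. Of 18 ER chaperones and folding enzymes in the table, 7 were tested, 6 were higher in tooth and none was lower, against 32.6% and 20.2% of all genes tested. The thioredoxin-domain isomerase gene txndc5 was at 674 ± 235 CPM in tooth and 19.9 ± 15.4 CPM in taste bud (SD, n = 6 each), 29.2-fold higher (log2FC 4.95, SE 0.51, adjusted p = 1.15e-08). The collagen chaperone gene serpinh1, which encodes HSP47, was 32.7-fold higher (log2FC 4.55, SE 0.72, adjusted p = 6.95e-06). Cyclophilin B, encoded by ppib, acts on collagen prolines and was 6.09-fold higher in tooth (log2FC 3.10, SE 0.49, adjusted p = 7.03e-06). The others that passed were hyou1, p4hb and hsp90b1, and canx did not (adjusted p = 0.0584). The median log2FC of the 7 was 3.10. For the genes of this list with 15 or more counts below the filter, the ratios ran from 0.641 for dnajb9 to 13.5 (2.17 to 557) for creld2.

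Of 14 genes of the oligosaccharyltransferase, which attaches sugars to new proteins, and of glycoprotein quality control, 5 were tested. Of these 2 were higher in tooth and 1 was lower, against 32.6% and 20.2% of all genes tested. The subunit gene ddost was 7.14-fold higher in tooth (log2FC 2.53, SE 0.55, adjusted p = 3.59e-04) and the glucosidase subunit gene prkcsh 3.10-fold higher (log2FC 1.49, SE 0.48, adjusted p = 0.0104). The subunit gene rpn1 was lower in tooth, at 53.4 ± 30.04 CPM, against 129.6 ± 13.3 CPM in taste bud (SD, n = 6 each, log2FC -1.23, SE 0.43, adjusted p = 0.0181). Both stt3a and ganab did not pass. For oligosaccharyltransferase subunit genes below the filter the ratios were 2.26 for rpn2, 3.03 for ostc, 1.03 for ost4 and 0.733 for magt1. Of 4 SRP receptor and translocon partner genes, 1 was tested. The translocon partner gene tram2, whose product associates with collagen synthesis in mammals, was counted 129 times in tooth and 0 times in taste bud, and was at least 27.6-fold higher (adjusted p = 4.84e-05).

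Calls in the lists below are to be read beside the 32.6% higher and 20.2% lower of all genes tested. Of 20 coat GTPase and cargo receptor genes, 5 were tested. The COPII GTPase gene sar1b was 2.44-fold higher in tooth (log2FC 1.51, SE 0.55, adjusted p = 0.0223), and the ER to Golgi receptor gene ergic3 was lower in tooth, at 2043 ± 770.2 CPM, against 4440.5 ± 1044 CPM in taste bud (SD, n = 6 each, log2FC -1.14, SE 0.33, adjusted p = 0.00455). The gene ergic3 had 5620 counts in all, against 53 for ergic1, and the limit on strand applies to it as well. The COPI delta subunit gene arcn1 did not pass (adjusted p = 0.15), nor did the exit-site genes of large cargo, mia3 (adjusted p = 0.156) and ctage5 (adjusted p = 0.849). Of 25 genes of SNAREs, Rabs and tethers between ER and Golgi, 8 were tested and 1 passed, rab2a, 4.02-fold higher in tooth (log2FC 1.81, SE 0.48, adjusted p = 0.00232). Of 18 genes of the unfolded protein response and CREB3 family, 4 were tested. The splicing-activated regulator gene xbp1 was higher in tooth (log2FC 1.12, SE 0.45, adjusted p = 0.0384) and the stress gene ddit3 was lower (log2FC -1.22, SE 0.43, adjusted p = 0.0179). The collagen-linked regulator gene creb3l1 did not pass, at 675 ± 231 CPM in tooth and 539.9 ± 115 CPM in taste bud (SD, n = 6 each, adjusted p = 0.43). The stability of calls outside the members was not examined.

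**Figure D5:**
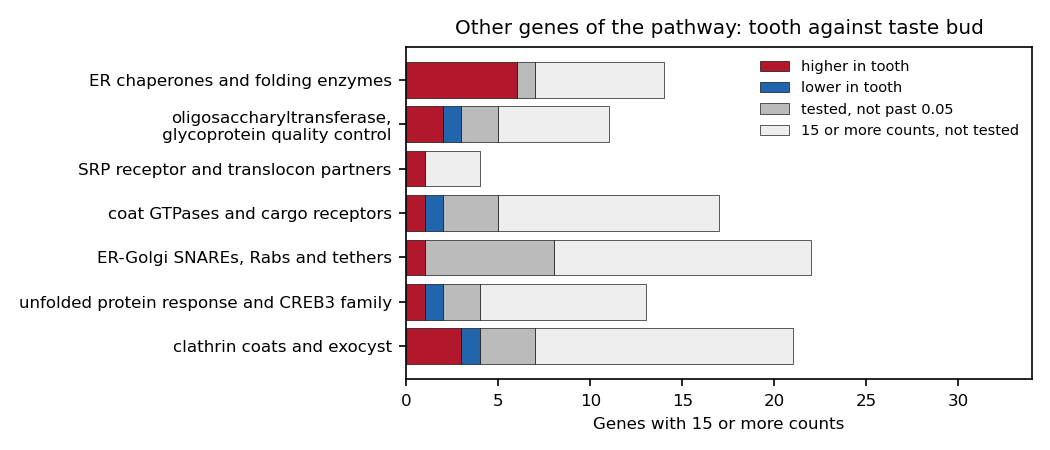
Bars count the genes with 15 or more counts in each list beside the members, split by the edgeR test of tooth against taste bud. Of the tested ER chaperones and folding enzymes, 6 of 7 were higher in tooth, while 1 of 8 SNARE, Rab and tether genes was, and most genes in the other lists were too low to be tested. Of all genes tested, 32.6% were higher in tooth. A gene can reach the filter through the tissue in which it is high, so tested genes do not speak for their list.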

How the data were processed

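The authors deposited whole-number read counts per gene feature, 1 column per library, with no normalization. Tools listed in the submitters' processing notes are HTSeq 0.6.1, TopHat2 2.0.9, limma 3.20.9, SAMtools 0.19 and edgeR 3.6.8. Genome build, annotation and strand setting are items not given in the sources at hand. Groups and replicate numbers came from the sample titles.

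In R 4.3.3, edgeR 4.0.16 tested 2962 genes with TMM and a quasi-likelihood model of 4 group means over all 12 libraries. Tests were 2-sided, with Benjamini-Hochberg adjustment over all 2962 genes and a threshold of 0.05. The filter, filterByExpr, asked for a total of 15 counts and for 3 libraries at the CPM that 10 counts make in a library of median size. A gene with 10 or more counts in 3 libraries, such as sec13, could thus miss it. SE is the log2FC over the root of its F statistic. CPM use TMM library sizes. A ratio is summed counts over summed TMM library sizes, in tooth 1207284 and in taste bud 774377. Fold values are such ratios, while the log2FC comes from the model of group means, so fold and log2FC need not match. Ratios over both species pool them, so a species difference can enter where the group sizes are unequal. With 1 to 3 counts in a group a ratio has a 95% exact counting interval. With 0 counts it is a bound against 3 counts over the group. Intervals and floors cover counting error only. Library pairs of a group differed by more than sampling noise (chi-square per degree of freedom 2.81 to 17.6), so none was merged.

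Named were all members with 15 or more counts, and the 3 called genes of smallest adjusted p of each other list. The members and lists were chosen with earlier results of these data known. Genes named beyond that rule were picked after their values were seen. Alternatives were RLE size factors, DESeq2 1.42.0, no filter, limma 3.58.1 voom with and without a replicate block, LOC105941146 left out, ribosomal protein share as covariate or its 3 highest libraries left out, and each library left out in turn. No protein or promoter sequence was used here.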

Additional observations from a re-analysis of the deposited data

How the results depend on the processing

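Depth limits most members: 39 of 58 were not tested, and a taste bud library of M. zebra gives no sight of a gene below 9.27 to 14.4 CPM. Of 11 tissue calls, srp14, srp54, ssr2, ssr4, pdia4, pdia6 and sec23a passed under all 20 alternatives, and no call reversed. Calls of sec62, sec23ip, copa and tmed2 each ended, and sec63 became lower in tooth, under at least 1 alternative, and the cause was not tested. Without a filter 17 members were called in the tissue comparison (16 higher in tooth, 1 lower). Of all 20692 genes in that fit 3327 were called, 2423 higher and 904 lower, against 1564 of 2962 in the main fit. In L. fuelleborni 8 were called with RLE size factors, 8 with DESeq2 and 7 with the ribosomal share as covariate, against 4. Over both species, 11 members were called in each of these fits, as in the main fit. In that comparison the genes called higher in tooth among all tested were 1070, 1065 and 997 in the same order, against 967. They come from both species, so they do not give the share of all genes for the L. fuelleborni counts. Whether the rise in L. fuelleborni was particular to the members was not tested. RLE and DESeq2 moved the median log2FC of all genes to 0.41 and 0.41, against 0.21 with TMM. The species call in taste bud (srp54) was lost, leaving 0, with the ribosomal share as covariate and when the 3 libraries richest in ribosomal protein counts were removed. Leaving out 1 library gave 8 to 10 members in the tissue comparison, 4 to 6 in L. fuelleborni, 5 to 9 in M. zebra, 0 to 1 between species in taste bud, and 0 in the other comparisons. Of all 2962 genes, those fits called 1449 to 1577, 943 to 1173, 1010 to 1353 and 61 to 187 in the same order. They gave summed shares of 0.780% to 0.811% in tooth and 0.405% to 0.445% in taste bud. The summed share in tooth and in taste bud was 0.705% and 0.481% on TMM library sizes, a ratio of 1.47. With LOC105941146 out of the total it was 0.795% and 0.537%, and over tested members 0.679% and 0.379%. Without sec23ip it was 0.516% and 0.310%. Without the 4 members of most counts (chosen after seeing the data) it was 0.288% and 0.0922%.

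The 3 same-numbered pairs of tooth and taste bud libraries did not all have an r across genes over 0.1 (0.0241 in L. fuelleborni, 0.0528 and 0.2045 in M. zebra), so the numbers were not taken to pair the samples. L. fuelleborni tooth 4 correlated better with taste bud 1 (0.1439), while M. zebra tooth 1 and 3 each correlated best with their own number, and 0.2045 was the highest r of the 18 pairs. With the replicate block, limma voom called 10, 5 and 9 members in the tissue comparison, L. fuelleborni and M. zebra, against 10, 4 and 9 without the block. Of all genes tested, 1605 were called in the tissue comparison with the block and 1590 without it.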

Other observations

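Coats that act after the Golgi were listed for comparison, outside the members. Of 24 clathrin coat and exocyst genes in the table, 7 were tested in the tooth against taste bud comparison, 3 were higher in tooth and 1 was lower, near the 32.6% and 20.2% of all genes tested. The adaptor gene ap2s1, whose product helps clathrin select cargo at the cell surface, was at 84.8 ± 27.9 CPM in tooth and 16.7 ± 11.5 CPM in taste bud (SD, n = 6 each), 5.13-fold higher (log2FC 2.22, SE 0.53, adjusted p = 8.28e-04). Its partner ap2m1 (log2FC 1.16, SE 0.48, adjusted p = 0.0414) and the Golgi adaptor gene ap1g1 (log2FC 1.66, SE 0.65, adjusted p = 0.0323) were higher in tooth as well. The clathrin light chain gene clta was lower in tooth, at 59.1 ± 40.0 CPM, against 155 ± 77.1 CPM in taste bud (SD, n = 6 each, log2FC -1.32, SE 0.51, adjusted p = 0.0305). The heavy chain gene cltc did not pass, at 143 ± 91.0 CPM in tooth and 111 ± 69.3 CPM in taste bud (SD, n = 6 each, log2FC 0.47, SE 0.46, adjusted p = 0.406). None of the exocyst genes was tested.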
